A study of Mus musculus with 12 samples.

Results

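Macrophages are phagocytes found in nearly every tissue, the membranes that enclose the fetus included. Their survival depends on the receptor CSF1R, which binds the ligands CSF1 and IL-34, and their identity depends on the transcription factor PU.1, encoded by Spi1. Macrophages that have settled in a tissue before birth typically carry scavenger and clearance receptors such as CD163, the mannose receptor MRC1 and the phosphatidylserine receptor TIMD4, while inflammatory states bring pattern recognition receptors such as CD14 and the C-type lectins CLEC4N and CLEC7A. Here 36 mouse genes of this kind were read in a table of 48795 genes. They were chosen by symbol and all 36 were found. They comprised 3 regulators, 6 genes shared by myeloid cells or by leukocytes in general, 5 general macrophage genes, 11 resident-type genes, 6 inflammatory-type genes, 3 Fc receptors for IgG and 2 genes linked to lipid-laden macrophages. Msr1 and Marco, which also encode scavenger receptors, were listed with the inflammatory type, so both types hold receptors of this class.

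The libraries were stranded RNA-seq of whole fetal membrane from mice that lacked both biglycan and decorin (DKO) and from wild-type mice (WT), at embryonic day 12 (E12) and embryonic day 18 (E18). Biglycan and decorin are small proteoglycans of the collagen matrix. Each of the 4 groups had 3 libraries. The DKO mice were on C3H and C57BL/6 and the WT mice on C3H, so genotype and strain cannot be told apart. The labels do not say which layers of the membrane were taken, how many animals gave a library, or whether replicates were separate litters, so the p-values measure the spread between these libraries, which may be technical.

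The libraries held 19967593 to 33065424 counted reads. Bgn and Dcn were lower in DKO at both stages, at 14.3 to 25.1 CPM (counts scaled to library size) for Bgn in the 6 DKO libraries against 223 to 686 CPM in the 6 WT libraries. Libraries did not all match their stage label. Embryonic genes made up 1.33 to 2.67% of the beta-globin reads in E18 DKO but 74.8 to 87.8% in the libraries labelled E18 WT, and 14.8% in E12 WT 1 against 95.1% and 97.1% in the other E12 WT libraries. The WT libraries labelled E18 are therefore called E18-labelled WT throughout. Library 3 labelled E18 WT held 1094 CPM over 8 trophoblast and decidual genes, against 133 and 142 CPM in the other 2. Dsp alone had a mean of 134 CPM in this group. Genes listed for both membrane layers were read in every library. The 9 amnion epithelium genes summed to 2034 to 6414 CPM and 8 yolk sac endoderm genes to 53258 to 164904 CPM. In E18 DKO, 3 of the 9 amnion genes were under 1 CPM in every library. Gabrp, for 1, had a mean of 0.170 CPM there and 106 CPM in E18-labelled WT. The sums alone therefore do not show how much of each layer a library held. Mitochondrial reads were 21.2% in E12 WT 3 and 3.58 to 7.78% elsewhere.

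Levels are CPM after TMM scaling, which corrects library sizes for composition. Differences are log2 fold changes with their standard error (SE), 3 libraries against 3. A gene was called when its adjusted p was under 0.05 by edgeR's quasi-likelihood F test, adjusted by Benjamini and Hochberg's method over 18153 tested genes. All adjusted p-values below are from that test unless another is named. Of the 36 genes, 35 were tested. Lyz1, a lysozyme gene of the gut with a near-identical copy in Lyz2, had 4 reads in all and was at 0 in 8 of 12 libraries. In whole tissue, fewer cells of a type and less RNA per cell cannot be told apart.

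Promoter windows, from 250 bases before to 50 bases after the start of transcription, were found for 26 of the 36 genes in RefSeq (GRCm38.p6). The PU.1 core GAGGAA was searched on both strands and occurred in the windows of 14 of the 26 genes, Ptprc, Laptm5, Cd68, Ctss, Mrc1, Cbr2 and Fcgr3 among them, and in those of 31.3% of all 27025 genes. A C/EBP-type motif, TTGCNNAA, occurred in 5 of the 26 genes and 12.2% of all genes. The AP-1 motif TGANTCA occurred in 5 of the 26 and 8.97% of all. The motifs were counted separately, so matches may overlap, and a match is a string of letters and not a measured binding site. The windows of Cd163 and Fcgr2b, which were higher in E18 DKO, and of Timd4, which was lower, held no PU.1 core. The 4 windows printed here all hold it, in capitals on either strand, so they do not show how often it occurs. They belong to 3 genes that were higher in E18 DKO (Cd68, Ctss and Fcgr3) and to 1 that was lower (Mrc1). They lie at chr11:69666121-69666420 (minus strand, Cd68), chr3:95526536-95526835 (plus strand, Ctss), chr1:171059354-171059653 (minus strand, Fcgr3, 1 of 2 windows of this gene) and chr2:14229164-14229463 (plus strand, Mrc1), and each is written 5′ to 3′ along the gene.
Cd68: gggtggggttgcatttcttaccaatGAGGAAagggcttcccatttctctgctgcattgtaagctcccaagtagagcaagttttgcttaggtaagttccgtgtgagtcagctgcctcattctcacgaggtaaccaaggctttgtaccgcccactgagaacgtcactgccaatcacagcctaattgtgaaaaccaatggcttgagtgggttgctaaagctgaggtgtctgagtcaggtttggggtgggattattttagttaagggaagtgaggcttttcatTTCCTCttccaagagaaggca
Ctss: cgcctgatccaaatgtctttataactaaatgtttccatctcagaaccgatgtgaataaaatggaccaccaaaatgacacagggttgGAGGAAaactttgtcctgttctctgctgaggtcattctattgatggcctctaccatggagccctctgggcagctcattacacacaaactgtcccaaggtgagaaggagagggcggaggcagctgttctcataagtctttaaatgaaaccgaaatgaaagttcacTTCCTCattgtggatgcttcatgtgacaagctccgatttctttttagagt
Fcgr3: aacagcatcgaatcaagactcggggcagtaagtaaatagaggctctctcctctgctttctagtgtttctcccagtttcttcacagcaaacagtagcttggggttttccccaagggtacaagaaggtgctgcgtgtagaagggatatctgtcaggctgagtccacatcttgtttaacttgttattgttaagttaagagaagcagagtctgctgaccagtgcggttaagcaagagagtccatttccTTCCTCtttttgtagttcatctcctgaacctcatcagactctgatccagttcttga
Mrc1: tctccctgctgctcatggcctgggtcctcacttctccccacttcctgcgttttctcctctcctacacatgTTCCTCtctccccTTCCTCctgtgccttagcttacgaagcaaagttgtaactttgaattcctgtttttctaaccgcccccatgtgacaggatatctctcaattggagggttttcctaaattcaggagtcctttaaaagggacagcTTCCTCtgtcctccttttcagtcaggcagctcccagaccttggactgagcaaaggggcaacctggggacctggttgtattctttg

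At E18, 15 of the 35 tested genes differed between DKO and E18-labelled WT. Of these, 12 were higher in E18 DKO and 3 were lower. Since E18-labelled WT carried mostly embryonic globins, genotype and stage cannot be told apart in any comparison of these 2 groups. Without library 1 or library 2 labelled E18 WT there were 9 calls each time, 7 higher and 2 lower, and scaling by library size alone gave 8 higher and 3 lower. Only 1 gene was called lower without any 1 of the E12 DKO libraries, without E18 DKO 1 or without library 3 labelled E18 WT. The main count is 42.9% of the genes, beside 42.3% of all genes tested, so the number that differed is no result about macrophage genes. The balance of directions was 34.3% higher and 8.57% lower, beside 20.5% and 21.8% of all genes. The groups did not overlap for 15 genes, 12 higher and 3 lower, beside 56.9% of all genes (27.8% higher and 29.1% lower). The median log2 difference was 0.64, beside -0.04 over all genes. The genes did not move as a block: Csf1r, Cd68, Ctss, Cd163, Cd14, Fcgr3 and Fcgr2b were higher, the F4/80 gene Adgre1, Mrc1 and Timd4 were lower, and none of the 6 general leukocyte genes was called. Other cell types' genes differed between the same libraries: 7 stroma genes summed to 2760 to 4850 CPM in E18 DKO versus 13858 to 30201 CPM, with 5 called lower and 1 (Pdgfrb) higher. The 3 primitive erythroid genes, all called lower, summed to 17.3 to 19.0 CPM versus 6049 to 7711 CPM. The part of these cell types in the balance of directions was not tested. At E12, none of the 35 was called, beside 0.353% of all genes (0.0936% higher and 0.259% lower).

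**Figure D1:**
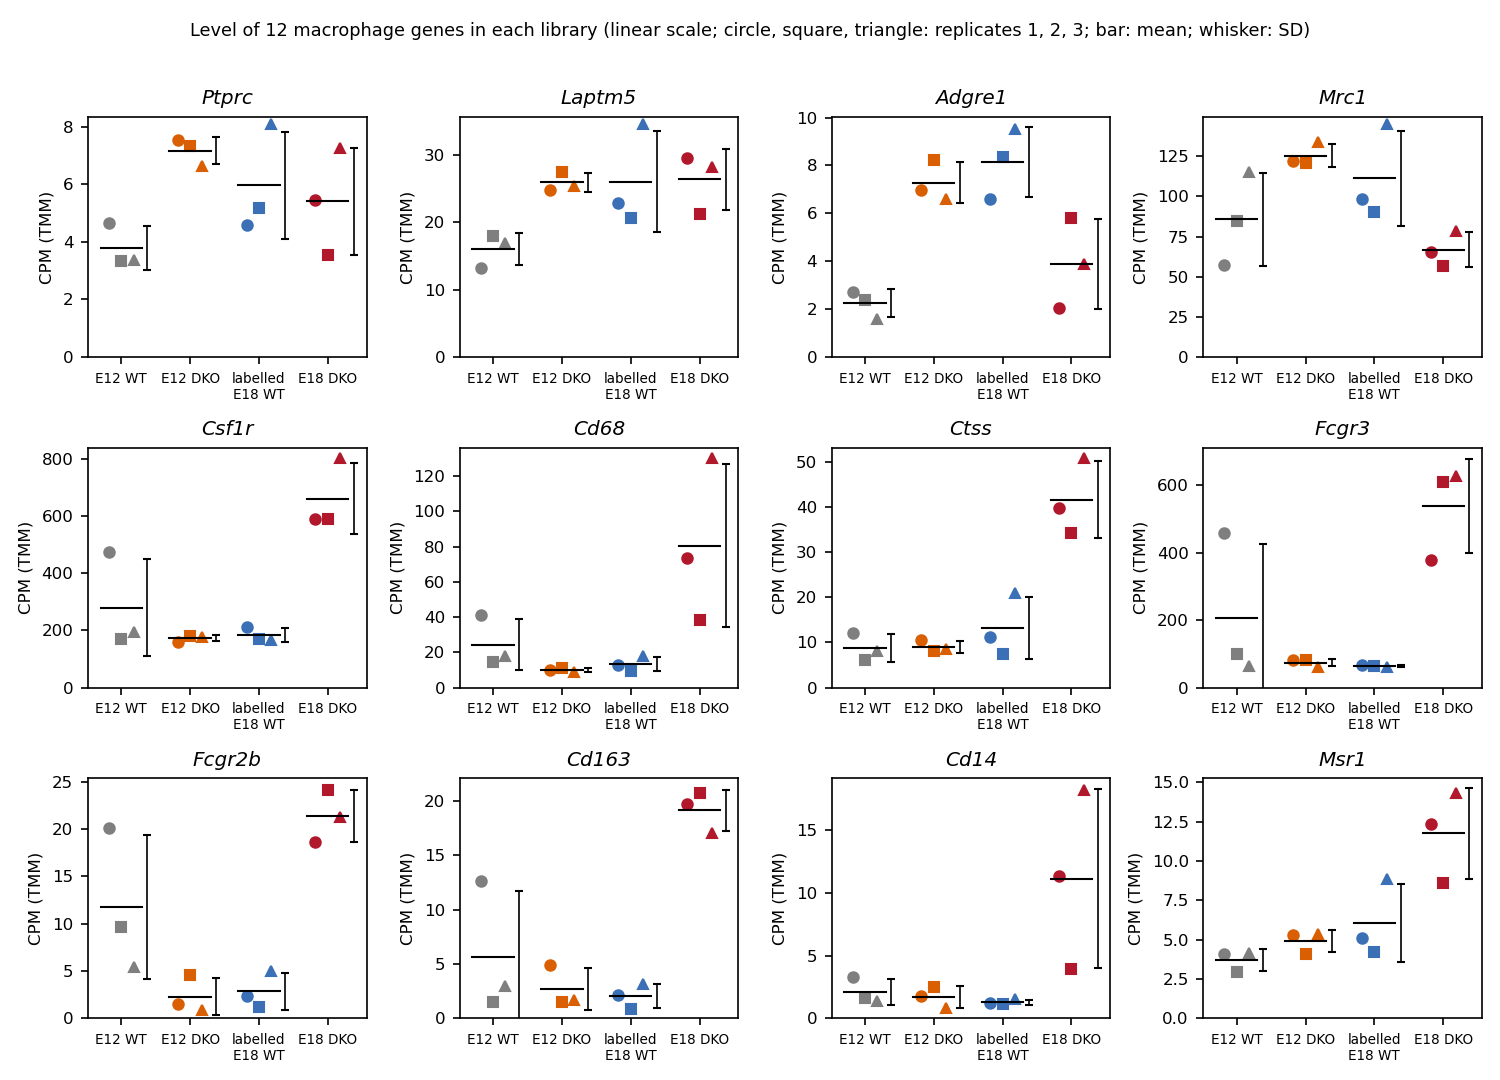
CPM (TMM-scaled, linear axis) of 12 macrophage genes in the 12 libraries, by group. Circles, squares and triangles are replicates 1, 2 and 3, bars are means and whiskers are SDs, which end at the axis where they reach below 0. Ptprc and Laptm5 overlap between the E18 groups, Mrc1 is lower in E18 DKO, and Csf1r, Cd68, Ctss, Fcgr3, Fcgr2b, Cd163 and Cd14 are higher in E18 DKO. For Csf1r, Cd68, Fcgr3 and Cd163, E12 WT 1 (grey circle) lies above the other E12 libraries.

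Csf1r, on chromosome 18 (GRCm38, 61105572 to 61132149), was at 589, 588 and 804 CPM in E18 DKO. It was at 210, 171 and 166 CPM in E18-labelled WT. The groups did not overlap, and the log2 difference was 1.85 (SE 0.34, adjusted p = 0.00179). Among the E12 libraries it was at 161, 179 and 178 CPM in DKO and at 474, 170 and 195 CPM in WT, so that 1 WT library, E12 WT 1, lay far above the other 5. Csf1r is also read in trophoblast cells. The 8 trophoblast and decidual genes summed to 79.0 to 162 CPM in E18 DKO and 133 to 1094 CPM in E18-labelled WT. Of these sums, Dsp alone had means of 98.1 and 134 CPM. The part of these genes in the result was not tested.

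The ligand gene Csf1 did not follow its receptor. It stood at 39.7, 41.5 and 59.5 CPM in E18 DKO versus 36.8, 35.5 and 113 CPM in E18-labelled WT, and the groups overlapped (log2 difference -0.39, SE 0.39, adjusted p = 0.442). Spi1 was at 9.62, 5.29 and 11.9 CPM in E18 DKO versus 7.5, 6.3 and 9.03 CPM in E18-labelled WT (log2 difference 0.23, SE 0.43, adjusted p = 0.688). The other CSF1R ligand, Il34, which is outside the 36 genes, was at 24.5, 31.2 and 29.8 CPM in E18 DKO versus 0.85 to 1.62 CPM in E18-labelled WT. It rose by 4.42 on the log2 scale (SE 0.97, adjusted p = 0.00436), and E12 WT 1, at 11.6 CPM, was again apart from the 0.373 to 0.822 CPM of the other E12 libraries.

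A list of 15 receptors, ligands and transcription factors around CSF1R and PU.1 included Il34. At E18, 7 of its 14 tested genes (50%) were higher in DKO, beside 20.5% of all genes. Besides Il34, the genes that rose were Cebpb (2.35), Cebpa (0.95) and Irf8 (1.47), factors of myeloid differentiation, Runx1 (2.53), a factor of blood cell origin, Id3 (1.81), and the receptor gene Csf2rb (1.08). Tfec fell by 2.02 on the log2 scale (adjusted p = 0.0261). Genes not called had log2 differences of -0.16 for Csf2ra, -0.25 for Zeb2, -0.87 for Nr1h3, 0.37 for Irf5 and -0.27 for Mef2c. Csf2 was not tested and had reads in 1 library alone. Many of these factors also act in epithelium. The 9 amnion epithelium genes summed to 4977 to 6414 CPM in E18 DKO and 2151 to 2696 CPM in E18-labelled WT. They did not move together: 4 (44.4%) were called higher in E18 DKO and 3 (33.3%) lower, beside 20.5% and 21.8% of all genes. Krt18 rose by 1.46 on the log2 scale and Gabrp fell by 9.27. The part of these differences in the results was not tested.

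None of the 6 general leukocyte genes was called at E18 by edgeR's test (1 at an unadjusted p under 0.05), by DESeq2's Wald test or by limma voom. By edgeR's test 42.3% of all genes were called, and 9294 of 18153 had an unadjusted p under 0.05. Ptprc, which encodes the leukocyte antigen CD45, was at 5.44, 3.54 and 7.24 CPM in E18 DKO versus 4.6, 5.19 and 8.08 CPM in E18-labelled WT (log2 difference -0.14, SE 0.32, adjusted p = 0.745). Laptm5, a lysosomal membrane protein of blood cells, was at 29.6, 21.3 and 28.3 CPM against 22.9, 20.6 and 34.6 CPM (0.02, SE 0.22, adjusted p = 0.955). For both genes the groups overlapped. Aif1, which encodes IBA1, was at 5.72, 5.12 and 6.37 CPM against 5.8, 2.81 and 9.32 CPM, and its log2 difference was -0.06 (SE 0.44). The signalling adaptor Fcer1g was at 25, 12.1 and 36.1 CPM against 18.8, 14.0 and 28.5 CPM (0.26, SE 0.50). The largest differences of the 6 were those of the adaptor Tyrobp, at 19.5, 11.7 and 25.8 CPM against 11.9, 7.24 and 12.2 CPM (0.86, SE 0.38, adjusted p = 0.0868), and of the integrin gene Itgb2, at 2.36, 1.41 and 4.74 CPM against 1.43, 1.82 and 1.76 CPM (0.76, SE 0.42, adjusted p = 0.162). A p over the threshold does not show that levels were equal.

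The libraries differed in the overall height of these genes. E18 DKO 3 was the highest of its group for 25 of the 35 genes and E18 DKO 2 the lowest for 23. Library 3 labelled E18 WT was the highest of its group for 30 of the 35 and library 2 the lowest for 24. The trophoblast and decidual genes of library 3 labelled E18 WT, given above, moved with this, and their part in it was not tested.

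Of the general macrophage genes, Cd68 and Ctss were higher in E18 DKO and Adgre1 was lower. Cd68 encodes a glycoprotein of lysosomes. Its level was 73.5, 38.3 and 130 CPM in E18 DKO versus 12.8, 9.49 and 17.8 CPM in E18-labelled WT, without overlap (log2 difference 2.59, SE 0.48, adjusted p = 0.00182). Ctss encodes the lysosomal protease cathepsin S and was at 39.8, 34.1 and 50.9 CPM against 11.3, 7.47 and 20.9 CPM (1.66, SE 0.36, adjusted p = 0.00435).

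Adgre1 encodes F4/80, the classical mouse macrophage antigen. Its level was 2.03, 5.8 and 3.87 CPM in E18 DKO versus 6.6, 8.35 and 9.52 CPM in E18-labelled WT. The groups did not overlap, and Adgre1 fell by 1.06 on the log2 scale (SE 0.36, adjusted p = 0.0354). This call was lost in 10 of 21 alternative analyses, among them when any 1 library of E12 DKO, E18 DKO replicate 1 or 3, or library 2 or 3 labelled E18 WT was left out (highest adjusted p = 0.11). Lyz2, the lysozyme of macrophages and other myeloid cells, was at 18.6, 11.7 and 45.1 CPM against 11.9, 11.3 and 27.2 CPM and was not called (0.58, SE 0.45, adjusted p = 0.325). Its reads may include some from Lyz1, which is nearly identical.

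**Figure D2:**
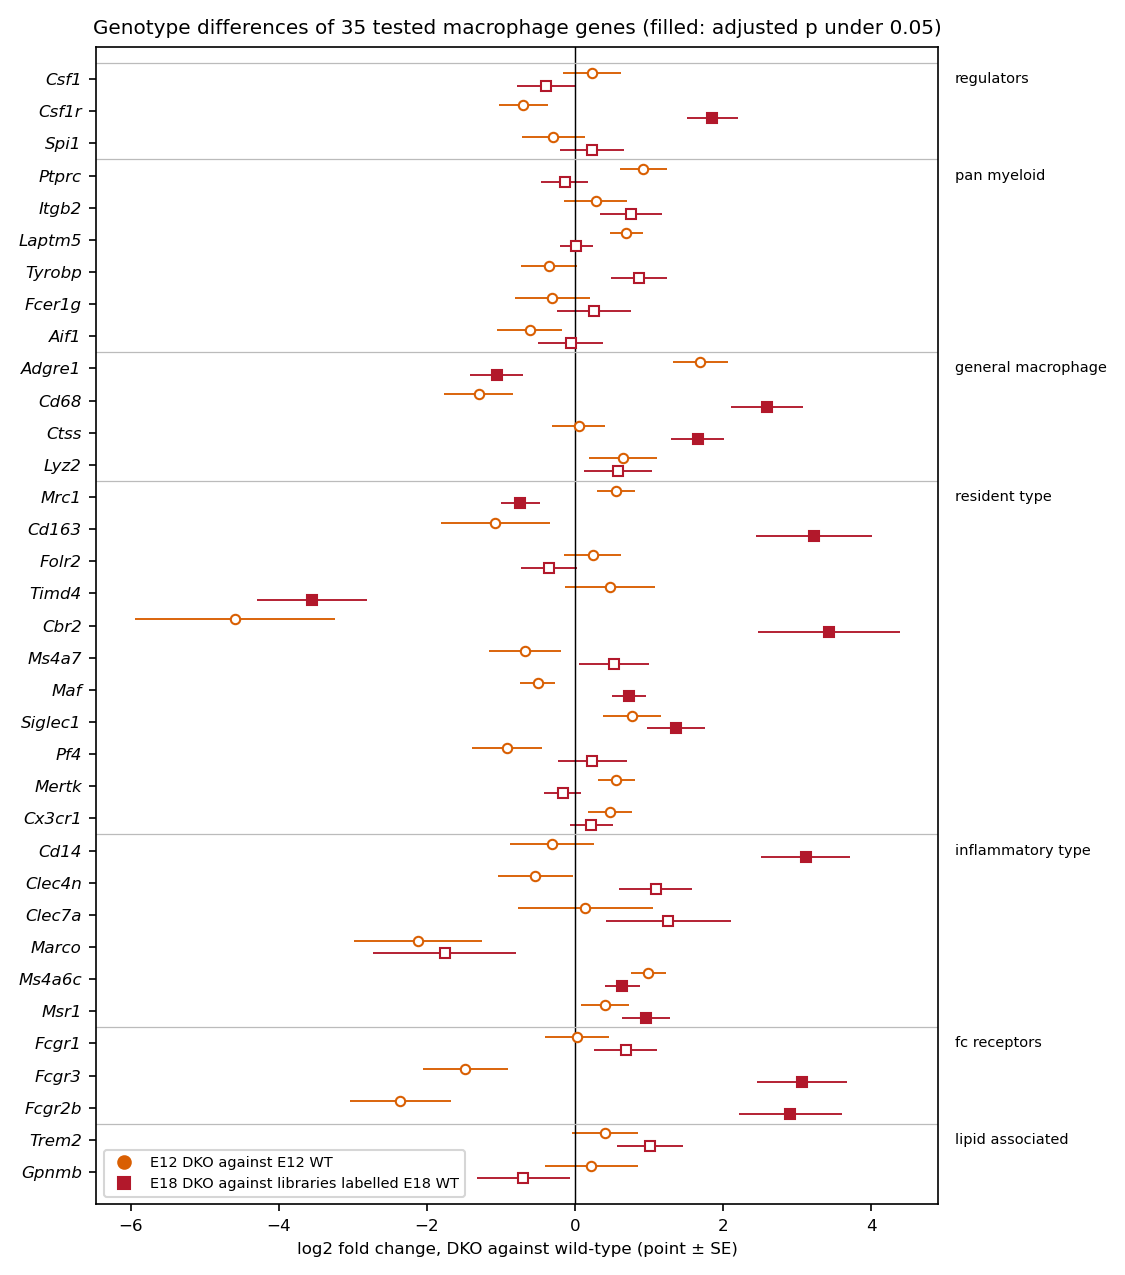
Log2 fold change of DKO against WT, with its SE, for the 35 tested genes, grouped by role (horizontal axis: log2 scale; 3 libraries against 3). Circles are E12 and squares are E18, filled where the adjusted p was under 0.05. No E12 point is filled, 12 filled E18 points lie above 0 and 3 (Adgre1, Mrc1 and Timd4) lie below it; the E12 point of Cbr2 depends on the prior count, since E12 DKO held 1 read.

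The 11 resident-type genes split at E18: 4 were higher in DKO, 2 were lower and 5 were not called, with a median log2 difference of 0.23. That is 36.4% higher and 18.2% lower, beside 20.5% and 21.8% of all genes. Cd163, the scavenger receptor for haemoglobin bound to haptoglobin, was at 19.7, 20.7 and 17 CPM in E18 DKO versus 2.11, 0.879 and 3.16 CPM in E18-labelled WT. The groups stood well apart, with a log2 difference of 3.23 (SE 0.79, adjusted p = 0.00744). The mannose receptor gene Mrc1, the most abundant receptor of the resident type in reads, was at 65.3, 56.6 and 78.6 CPM against 98.3, 90.6 and 145 CPM. It fell by 0.74 (SE 0.26, adjusted p = 0.0393), without overlap. The Mrc1 call was lost in 8 of 21 alternatives: without any 1 library of E12 DKO, without E12 WT 2, without E18 DKO 1 or 2 and without library 1 or 3 labelled E18 WT (highest adjusted p = 0.151).

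Timd4, a receptor for dying cells on long-lived resident macrophages, had 0, 1 and 3 reads in E18 DKO and 21, 27 and 23 reads in E18-labelled WT. Its log2 difference was -3.55 (SE 0.74, adjusted p = 0.00337). The level was low everywhere, at most 0.944 CPM. Cbr2, a carbonyl reductase gene, was also scarce but moved the other way. Its level was 3.68, 1.24 and 2.78 CPM in E18 DKO versus 0.188, 0.117 and 0.41 CPM in E18-labelled WT (3.43, SE 0.96, adjusted p = 0.0146). Leaving out library 1 or 2 labelled E18 WT ended that call (highest adjusted p = 0.0611).

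Siglec1, a sialic acid receptor, was at 6.6, 9.13 and 9.15 CPM in E18 DKO versus 2.37, 3.05 and 4.27 CPM in E18-labelled WT (1.36, SE 0.39, adjusted p = 0.0167). The transcription factor gene Maf was at 291, 363 and 419 CPM against 201, 200 and 246 CPM (0.73, SE 0.23, adjusted p = 0.0272). Neither pair of groups overlapped. The Siglec1 call was lost without library 1 or 2 labelled E18 WT and with scaling by library size alone (highest adjusted p = 0.0668). The Maf call was lost under the same 3 changes and without E18 DKO replicate 2 or 3 (highest adjusted p = 0.162). Maf is also made outside macrophages.

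The other 5 resident-type genes were not called at E18. Cx3cr1, the fractalkine receptor, was at 26.5, 33.2 and 33.4 CPM against 24.5, 20.6 and 35.1 CPM (0.22, SE 0.29). Mertk, a receptor kinase for dying cells, was at 46.4, 29.0 and 23.9 CPM against 37.9, 42.8 and 30.6 CPM (-0.17, SE 0.25). Folr2, folate receptor beta, was at 4.84, 3.07 and 9.97 CPM against 6.18, 8.67 and 7.88 CPM (-0.35, SE 0.38). These 3 pairs of groups overlapped widely. Ms4a7 was at 6.49, 4.01 and 7.73 CPM against 3.47, 1.99 and 7.22 CPM (0.53, SE 0.48). The chemokine gene Pf4, which platelets and their precursors share, was at 33.9, 19.0 and 50.8 CPM against 28.3, 17.3 and 42.6 CPM (0.24, SE 0.46). A list of 8 megakaryocyte genes summed to 44.9 to 53.9 CPM in E18 DKO and 18.1 to 55.9 CPM in E18-labelled WT. Itgb3 alone had means of 32.1 and 12.5 CPM. Of the 8, 6 had estimates below 0 (median -1.33). Itgb3 (1.36) was called higher and Gp1ba (-1.77) lower, 12.5% each way, beside 20.5% and 21.8% of all genes.

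A list of 16 further genes of resident macrophages, many of them shared with endothelium or other tissue cells, had 14 tested. At E18, 8 (57.1%) were higher in DKO and none was lower, beside 20.5% and 21.8% of all genes, with a median of 1.12. The complement gene C1qa was at 85.2, 85.4 and 108 CPM in E18 DKO versus 26.9, 16.3 and 40.6 CPM in E18-labelled WT (1.74, adjusted p = 0.00131), and C1qc rose with it (1.24, adjusted p = 0.000908). The hyaluronan receptor gene Lyve1 was at 154, 200 and 133 CPM against 50.7, 51.9 and 58.5 CPM (1.60, adjusted p = 0.000213). The transporter gene Slco2b1 was at 325, 487 and 243 CPM against 8.56, 6.62 and 10.1 CPM (5.38, adjusted p = 0.000725). Lyve1 is also a gene of lymphatic endothelium. The 7 endothelial genes summed to 366 to 382 CPM in E18 DKO and to 179 to 323 CPM in E18-labelled WT, and 8 genes of yolk sac endoderm summed to 81004 to 162698 CPM against 53258 to 81301 CPM. The part of these cells in the results was not tested.

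Of the 6 inflammatory-type genes, 3 (50%) were higher in E18 DKO, none was lower and 3 were not called, with a median of 1.03. Over all genes 20.5% were higher and 21.8% lower. Cd14, the co-receptor for bacterial lipopolysaccharide, was at 11.3, 3.92 and 18.1 CPM in E18 DKO. It was at 1.21, 1.11 and 1.52 CPM in E18-labelled WT (log2 difference 3.12, SE 0.60, adjusted p = 0.00223). All E18 DKO libraries lay above the other group, but over a wide range, with E18 DKO 2 lowest. Msr1, scavenger receptor A, was at 12.4, 8.61 and 14.3 CPM against 5.09, 4.22 and 8.86 CPM, overlapping slightly (0.96, SE 0.32, adjusted p = 0.0326). Ms4a6c, of a family of closely related membrane proteins, was at 11.8, 14.3 and 14.2 CPM against 7.84, 6.71 and 11.4 CPM (0.64, SE 0.23, adjusted p = 0.047).

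The last 2 calls were near the threshold. That of Msr1 was lost in 7 of 21 alternatives, among them without E18 DKO replicate 1 or 3 or library 1 or 2 labelled E18 WT (highest adjusted p = 0.145). That of Ms4a6c was lost in 11, among them without any 1 library of E12 DKO or E18 DKO or library 1 or 2 labelled E18 WT (highest adjusted p = 0.392).

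The fungal lectin receptors were not called at E18. Clec4n, dectin-2, was at 3.63, 1.92 and 6.05 CPM in E18 DKO versus 1.62, 1.35 and 2.46 CPM in E18-labelled WT (1.09, SE 0.49, adjusted p = 0.0951). Clec7a, dectin-1, ranged from 0.151 to 2.23 CPM over the 12 libraries and was highest in E18 DKO 3 (1.26, SE 0.85, adjusted p = 0.25). The scavenger receptor gene Marco ranged from 0 to 1.18 CPM and was the one gene of the inflammatory type with a lower estimate in DKO at both stages (-1.76, SE 0.97, adjusted p = 0.163 at E18 and -2.12, SE 0.86, adjusted p = 0.168 at E12). It was highest in E12 WT 3.

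Of 22 further inflammatory genes, 15 were tested. At E18, 6 (40%) were higher in DKO and 1 (6.67%), Arg1, was lower, beside 20.5% and 21.8% of all genes, with a median of 1.25. The monocyte gene Ly6c2 was at 1.92, 1.62 and 3.21 CPM in E18 DKO versus most 0.117 CPM in E18-labelled WT (5.20, adjusted p = 0.00101). Saa3, an acute-phase gene that epithelium also makes, was at 1125, 818 and 284 CPM against 38.7, 5.39 and 40.3 CPM (4.72, adjusted p = 0.0219), and was at 687 CPM in E12 WT 1. Plac8 rose by 1.20 (adjusted p = 0.0215) and Slfn4 by 4.19 (adjusted p = 0.0146). The monocyte receptor gene Ccr2 was at 2.2, 2.6 and 6.59 CPM against 2.49, 1.08 and 3.9 CPM and was not called (adjusted p = 0.634).

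Neutrophils share several of the inflammatory-type genes. Of 13 neutrophil genes 6 were tested, and at E18 S100a9 and Cxcr2 were higher in DKO and Mpo was lower. That is 33.3% higher and 16.7% lower, beside 20.5% and 21.8% of all genes. The list's sum was 202 to 279 CPM in E18 DKO and 5.28 to 12.8 CPM in E18-labelled WT. Cxcr2 alone held 219, 274 and 174 CPM of it in E18 DKO, and without Cxcr2 the sums were 5.76 to 28.3 CPM against 4.22 to 10.2 CPM. Ly6g was at 0 in all 6 libraries of this stage, and Elane was at 0 in 5 of them. Retnlg was seen there only in E18 DKO, at 0.110, 0 and 0.871 CPM, and Mmp8 was at 0.330, 0.299 and 1.80 CPM in E18 DKO versus 0.0377, 0.0879 and 0.0410 CPM. Csf3r was at 2.64, 0.597 and 6.21 CPM versus 0.528, 0.352 and 1.48 CPM (2.01, adjusted p = 0.0628). S100a8 was at 0.385, 0.512 and 7.03 CPM and S100a9 at 1.92, 2.18 and 8.61 CPM in E18 DKO. E18 DKO 3 was thus highest for these 2 genes, as for 25 of the 35 tested macrophage genes, but lowest of its group for Cxcr2. The part of neutrophils in the differences was not tested. The 12 lymphoid genes summed to at most 1.76 CPM in any library, and 8 mast cell genes summed to 26.4 to 52.7 CPM in E18 DKO and 9.16 to 14.4 CPM in E18-labelled WT. Tpsb2 (5.82) and Cma1 (3.60) were the 2 called of 5 tested mast cell genes, which is 40% higher, beside 20.5% of all genes. The 8 dendritic cell genes summed to 17.6 to 20.9 CPM against 11.9 to 19.3 CPM. None of the 4 that were tested was called, beside 42.3% of all genes, and the part of dendritic cells in the results was not tested.

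Resident-type and inflammatory-type genes were set side by side in each library. The level of each gene was taken as log2(CPM + 0.5), centred on its mean over the 12 libraries, and the median was taken over the genes of a type. The resident-type median was 0.30, 0.30 and 0.80 in E18 DKO and 0.01, -0.31 and 0.44 in E18-labelled WT. The inflammatory-type median was 0.76, 0.32 and 1.38 against -0.14, -0.38 and 0.53. Within each of these groups, both types were thus highest in the same library, E18 DKO 3 in the one and library 3 labelled E18 WT in the other. The resident minus inflammatory difference was -0.45, -0.01 and -0.57 in E18 DKO and 0.16, 0.07 and -0.08 in E18-labelled WT, so the groups overlapped. It was 0.28, 0.14 and -0.19 in E12 DKO and 0.20, 0.33 and 0.08 in E12 WT.

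**Figure D3:**
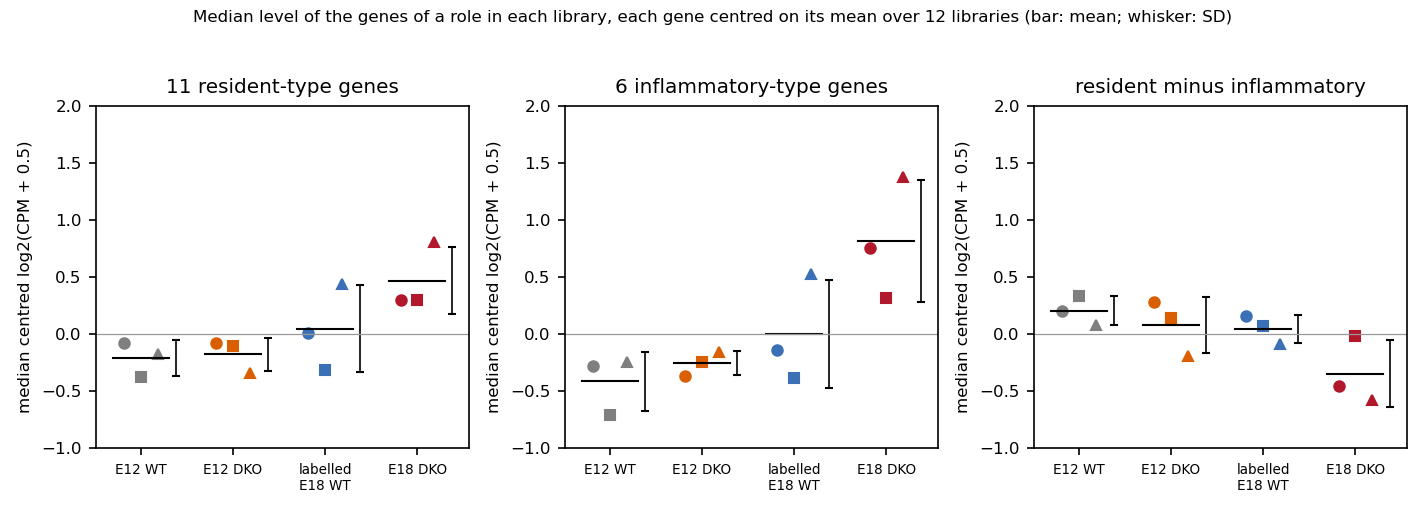
Median centred level, as log2(CPM + 0.5), of the 11 resident-type and 6 inflammatory-type genes and the difference of the 2 medians, per library and group. Symbols are replicates 1, 2 and 3, bars are means and whiskers are SDs. Both types are highest in E18 DKO 3 (0.80 and 1.38), and the difference is below 0 in all 3 E18 DKO libraries but only just in E18 DKO 2 (-0.01).

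Of the 3 Fc receptor genes, Fcgr3 and Fcgr2b were higher in E18 DKO and Fcgr1 was not called. Fcgr3, on chromosome 1 (GRCm38, 171051174 to 171064935), encodes an activating receptor for IgG. Its level was 378, 610 and 627 CPM in E18 DKO versus 67.0, 65.0 and 60.7 CPM in E18-labelled WT (log2 difference 3.07, SE 0.61, adjusted p = 0.00254). Fcgr2b, its inhibitory counterpart on the same chromosome, was at 18.7, 24.2 and 21.3 CPM against 2.37, 1.2 and 5.01 CPM (2.91, SE 0.70, adjusted p = 0.00673). The groups were far apart for both. The high-affinity receptor gene Fcgr1 was at 11.4, 9.51 and 17.8 CPM against 6.29, 5.19 and 12.6 CPM (0.68, SE 0.43, adjusted p = 0.22). The Fc receptor genes are closely related, and how reads that match several of them were divided is uncertain.

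Neither gene of lipid-laden macrophages was called at E18. Trem2 was at 4.29, 3.84 and 4.14 CPM in E18 DKO versus 1.28, 1.76 and 3.04 CPM in E18-labelled WT, without overlap (1.01, SE 0.44, adjusted p = 0.0855). Gpnmb was at 1.54, 0.725 and 1.31 CPM against 0.716, 1.38 and 3.69 CPM (-0.70, SE 0.63, adjusted p = 0.395). Trem2 passed in 5 alternatives, among them without E12 WT 1 and without library 3 labelled E18 WT.

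To compare genes within a library, levels were divided by exonic length (RPKM, reads per kilobase of exon scaled as CPM). Fcgr3 and Csf1r led in E18 DKO, at 310 ± 80.0 and 135 ± 25.3 RPKM (SD, n = 3), followed by Cd68 at 64.2 ± 37.0 RPKM and Pf4 at 47.9 ± 22.4 RPKM, which overlapped. In E18-labelled WT the 3 leading genes, Pf4, Csf1r and Fcgr3, were at 40.8 ± 18.0, 37.4 ± 4.94 and 37.0 ± 1.90 RPKM and did not differ beyond their spread. In E12 DKO, Fcgr3 at 42.8 ± 6.62 RPKM and Csf1r at 35.3 ± 2.09 RPKM overlapped, followed by Maf at 26.8 ± 1.54 RPKM. In E12 WT, Fcgr3 at 119 ± 126 RPKM and Csf1r at 57.3 ± 34.6 RPKM did not differ beyond their spread, which E12 WT 1 widened.

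Per length, levels were also set against Ptprc in the same library, as a reading relative to leukocyte RNA. Csf1r stood at 406, 623 and 416 times Ptprc in E18 DKO. It stood at 171, 124 and 77.1 times in E18-labelled WT. Fcgr3 stood at 734, 1817 and 913 times Ptprc against 154, 132 and 79.2 times, and Cd68 at 197, 158 and 262 times against 40.6, 26.7 and 32 times. These 3 pairs of groups did not overlap. Laptm5, at 26.3, 29.1 and 18.9 times against 24.1, 19.2 and 20.7 times, and Cx3cr1, at 23.9, 45.9 and 22.6 times against 26.0, 19.4 and 21.2 times, did overlap. The ratio of Cd163 to Mrc1, both resident-type receptors, was 0.352, 0.426 and 0.253 in E18 DKO and 0.0251, 0.0113 and 0.0254 in E18-labelled WT. Ratios to Ptprc rest on a gene of low level per length and carry no test. Ptprc was at 0.193 to 0.396 RPKM in E18 DKO and 0.251 to 0.441 RPKM in E18-labelled WT. It was at 0.363 to 0.411 RPKM in E12 DKO and 0.181 to 0.255 RPKM in E12 WT. The largest ratios of Csf1r and Fcgr3 were those of E18 DKO 2, the E18 DKO library with the lowest Ptprc (0.193 RPKM, 83 reads).

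**Figure D4:**
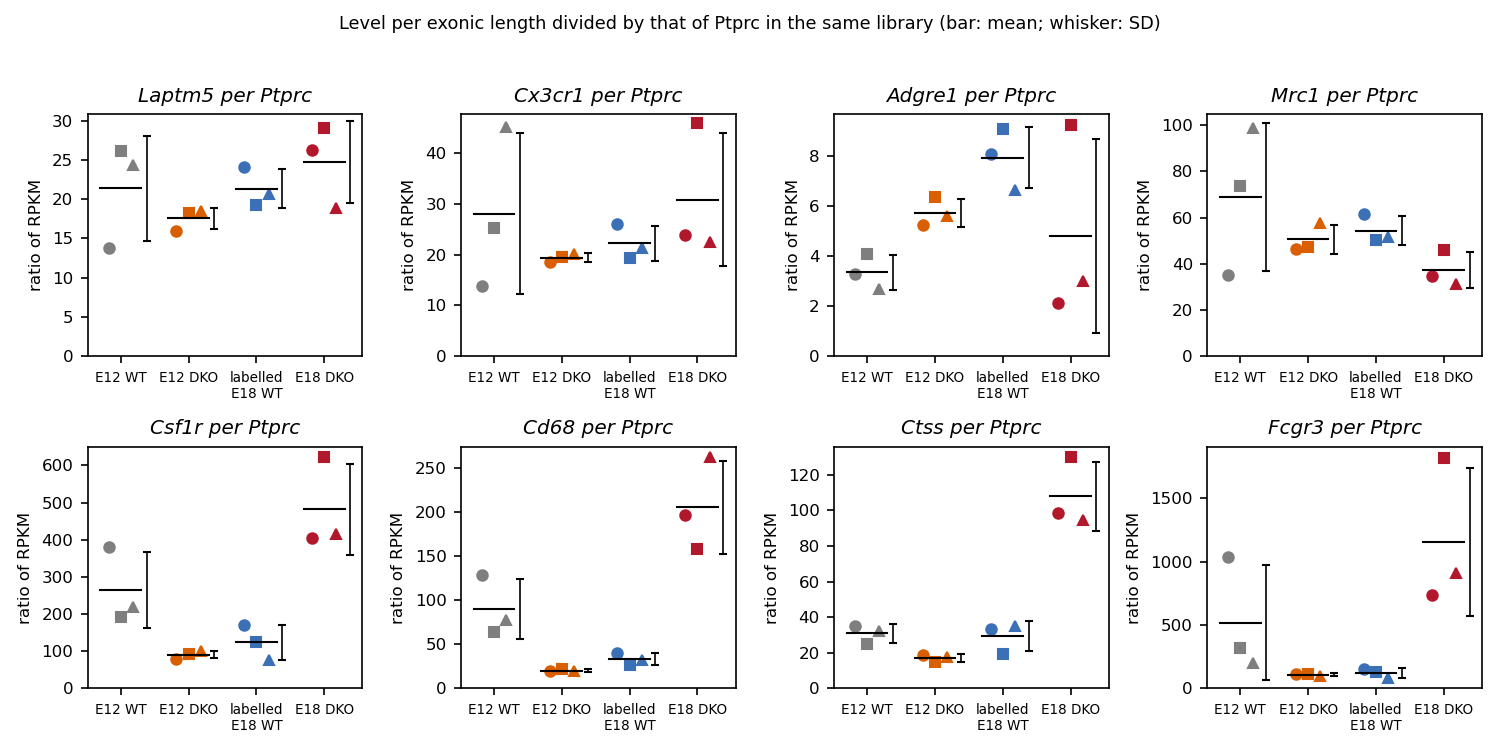
Level per exonic length (RPKM) of 8 macrophage genes divided by that of Ptprc in the same library, by group (linear axes from 0; symbols: replicates 1, 2 and 3; bars: means; whiskers: SDs). Csf1r, Cd68, Ctss and Fcgr3 relative to Ptprc are higher in all 3 E18 DKO libraries than in any E18-labelled WT library, while Laptm5 and Cx3cr1 overlap.

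At E12, the question was whether DKO membranes differed in the same genes. No member passed edgeR's test, beside 0.353% of all genes. An unadjusted p under 0.05 was found for 10 of 35, beside 4416 of all 18153 genes. The median log2 difference was 0.05, beside -0.08 over all genes. The groups did not overlap for 11 genes, 7 of them higher in DKO and 4 lower, beside 30.1% of all genes without overlap (15.7% higher and 14.4% lower). DESeq2's Wald test called 6 of the 35 (Ptprc, Laptm5, Adgre1 and Ms4a6c higher, Cbr2 and Fcgr2b lower), beside 11.4% of all genes, and limma voom called 0. Without E12 WT 1, edgeR's test called 3 (Adgre1, Siglec1 and Ms4a6c, all higher), beside 17.1% of all genes. E12 WT 1, whose globin share went against its stage label, was the highest of its group for 12 of the 35 genes and the lowest for 13.

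Adgre1 was at 6.97, 8.24 and 6.62 CPM in E12 DKO versus 2.73, 2.39 and 1.59 CPM in E12 WT, without overlap (1.69, SE 0.37, adjusted p = 0.0703). Ptprc was at 7.53, 7.32 and 6.65 CPM against 4.67, 3.32 and 3.35 CPM (0.92, SE 0.32, adjusted p = 0.126), and Laptm5 at 24.9, 27.6 and 25.5 CPM against 13.3, 17.9 and 16.9 CPM (0.69, SE 0.22, adjusted p = 0.11). Ms4a6c was at 9.17, 7.15 and 8.06 CPM against 3.92, 3.89 and 4.47 CPM (0.99, SE 0.24, adjusted p = 0.0755). In each, all 3 DKO libraries lay above all 3 WT libraries, E12 WT 1 included. Fcgr2b lay the other way, at 1.51, 4.54 and 0.859 CPM against 20.2, 9.7 and 5.41 CPM (-2.36, SE 0.68, adjusted p = 0.0957). Cbr2 had 1 read in all of E12 DKO and 24 in E12 WT, 21 of them in E12 WT 1, a ratio of 34.0 per mapped read (95% exact interval of counting error 5.55 to 1399).

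The groups also did not overlap at E12 for 5 further genes, none of them called. Mrc1 was at 122, 121 and 134 CPM in E12 DKO versus 57.0, 84.8 and 115 CPM in E12 WT (0.55, SE 0.26, adjusted p = 0.215). Lyz2 was at 9.24, 10.7 and 9.53 CPM against 6.25, 6.85 and 5.65 CPM (0.65, SE 0.46, adjusted p = 0.402), and Mertk at 52.1, 43.3 and 56.0 CPM against 33.2, 41.2 and 28.4 CPM (0.56, SE 0.25, adjusted p = 0.201). Cd68 and Marco were on the other side, with every DKO library below every WT library. Cd68 was at 10.1, 11 and 8.72 CPM against 41.0, 14.6 and 17.7 CPM (-1.30, SE 0.47, adjusted p = 0.135). Marco was at 0.0657, 0.136 and 0.249 CPM against 0.352, 0.535 and 1.18 CPM (-2.12, SE 0.86, adjusted p = 0.168). Cd163, Cd14, Pf4 and Fcer1g overlapped between the groups, each with 1 WT library highest. Cd163 was at 4.93, 1.49 and 1.66 CPM against 12.6, 1.5 and 2.94 CPM, and Cd14 at 1.74, 2.51 and 0.831 CPM against 3.3, 1.61 and 1.35 CPM, with E12 WT 1 highest for both. Pf4 was at 16.3, 17.6 and 16.0 CPM against 14.8, 27.1 and 52.3 CPM, and Fcer1g at 15.2, 16.3 and 13.6 CPM against 7.71, 14.1 and 33.9 CPM, with E12 WT 3 highest for both. E12 WT 3 was the library with the most mitochondrial reads. Of the 16 further resident genes, 1 of the 14 tested (7.14%) was called at E12, beside 0.353% of all genes (0.0936% higher and 0.259% lower). It was F13a1, the factor XIII subunit of macrophages and platelets. Its level was 86.9, 78.3 and 71.6 CPM in DKO and 31.8, 31.3 and 29.2 CPM in WT (1.36, SE 0.21, adjusted p = 0.0366). The groups did not overlap, but the call was lost under 10 of 21 alternatives: without any 1 of the E12 DKO libraries, without E12 WT 3, without E18 DKO 1 or 3, without library 1 or 2 labelled E18 WT, with the replicate block (adjusted p = 0.0707) and when only the E12 libraries were fitted (adjusted p = 0.153). Its adjusted p without 1 library ran from 0.00852 to 0.200. None of the 14 tested CSF1R and PU.1 companions (3 at an unadjusted p under 0.05) and none of the 15 tested inflammatory companions (3) passed edgeR's test at E12. Over all genes 0.353% passed, and 4416 of 18153 had an unadjusted p under 0.05.

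Of the 12 genes that were higher in E18 DKO, 7 had a level in E12 WT 1 above those of the 8 other E12 and labelled E18 WT libraries. They were Csf1r, Cd68, Cd163, Cbr2, Cd14, Fcgr3 and Fcgr2b, while Ctss, Maf, Siglec1, Msr1 and Ms4a6c did not lie above. How many of all genes higher in E18 DKO did so was not counted, so the number is no result about macrophage genes. Fcgr3, for example, was at 459 CPM in E12 WT 1 and at 60.7 to 99.1 CPM in those 8 libraries. Cd68 was at 41.0 CPM in E12 WT 1 and at 8.72 to 17.8 CPM in the 8. E12 WT 1 was also the E12 library with the lowest embryonic globin share, so these levels and that share moved together.

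The genotype difference itself was compared between stages, as E18 DKO against E18-labelled WT minus E12 DKO against E12 WT. It differed for 12 of the 35 genes, 9 upward and 3 downward, beside 41.9% of all genes (21.6% upward and 20.3% downward). Scaling by library size alone gave 7 upward and 7 downward. The changes upward were in Csf1r (2.55), Cd68 (3.90), Ctss (1.61), Cd163 (4.30), Cbr2, Maf (1.23), Cd14 (3.42), Fcgr3 (4.55) and Fcgr2b (5.27), and those downward in Adgre1 (-2.75), Mrc1 (-1.29) and Timd4 (-4.03). That of Ctss was lost in 5 of 20 alternatives: without E12 DKO 2 or 3, E18 DKO 3 or library 1 labelled E18 WT, and with library size scaling, which also ended that of Maf (highest adjusted p = 0.142 for both). Adgre1, Mrc1 and Timd4 had estimates above 0 at E12 and below 0 at E18. Csf1r, Cd68, Cd163, Cbr2, Cd14, Fcgr3, Fcgr2b and Maf had estimates below 0 at E12 and above 0 at E18. By type, 3 resident-type genes (27.3%) went up and 2 (18.2%) down, and 1 inflammatory-type gene (16.7%), Cd14, went up. Over all genes 21.6% went up and 20.3% down. Since E18-labelled WT carried embryonic globins, a difference of genotype effects and a difference of stage cannot be told apart here.

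Embryonic genes made up 82.3 to 85.1% of the beta-globin reads in E12 DKO and 1.33 to 2.67% in E18 DKO, so these groups matched their stage labels. From E12 DKO to E18 DKO, 18 of 35 genes differed, 16 higher at E18 and 2 lower. That is 51.4% of the genes, beside 46% of all genes, with 45.7% higher beside 23.2% and 5.71% lower beside 22.8%. Scaling by library size alone gave 11 higher and 4 lower. This comparison shares the E18 DKO libraries with the comparison at E18 above. The values of Csf1r (1.94, SE 0.35, adjusted p = 0.00127), Cd68 (3.02, SE 0.49, adjusted p = 0.000772), Ctss (2.20, SE 0.37, adjusted p = 0.000931), Cd163 (2.83, SE 0.77, adjusted p = 0.0117), Cd14 (2.71, SE 0.59, adjusted p = 0.00369), Fcgr3 (2.86, SE 0.60, adjusted p = 0.00312) and Fcgr2b (3.22, SE 0.70, adjusted p = 0.00387) all rose with stage. Cbr2 went from 1 read in E12 DKO to 147 reads in E18 DKO, a ratio of 235 per mapped read (95% exact interval 41.6 to 9356).

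The 2 genes that fell from E12 DKO to E18 DKO were Mrc1, by 0.91 (SE 0.26, adjusted p = 0.0146), and Timd4, by 2.92 (SE 0.75, adjusted p = 0.0086). Mrc1 was by far the more abundant. Msr1 (1.26), Clec4n (2.00), Ms4a7 (1.85), Siglec1 (1.18), Lyz2 (1.35), Tyrobp (1.12), Ms4a6c (0.73) and Maf (0.70) rose. For Tyrobp, Lyz2, Siglec1, Maf and Ms4a6c the call was lost in 6 of 21 alternatives each, among them without E12 DKO 2 or 3 or E18 DKO 3 (highest adjusted p = 0.233). For Mrc1 it was lost without E18 DKO 2 (adjusted p = 0.0513). Of the resident-type genes 5 (45.5%) rose and 2 (18.2%) fell, and of the inflammatory-type genes 4 (66.7%) rose and none fell. Over all genes 23.2% rose and 22.8% fell. Adgre1 was 0.90 lower but was not called (SE 0.36, adjusted p = 0.0624), and Ptprc was not called either (-0.41, SE 0.32, adjusted p = 0.309). Ly6c2, at most 0.0339 CPM in E12 DKO, rose by 7.19 (adjusted p = 0.000362), and the neutrophil gene S100a9 by 6.85 (adjusted p = 0.000395).

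Between E18-labelled WT and E12 WT, 1 of 35 genes was called, beside 0.953% of all genes (0.292% higher and 0.661% lower). It was Adgre1, with a log2 difference of 1.86 (SE 0.37, adjusted p = 0.0444), which was lost in 11 of 21 alternatives, among them without any 1 library of E12 DKO or of E18-labelled WT, without E12 WT 2 or 3 and without E18 DKO 3 (highest adjusted p = 0.145). Fcgr3 (-1.69, SE 0.58, adjusted p = 0.169) and Fcgr2b (-2.05, SE 0.68, adjusted p = 0.157) had estimates below 0, for which E12 WT 1 was the highest E12 library.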

How the data were processed

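RNA from whole fetal membrane was sequenced as stranded libraries of polyadenylated RNA. The authors deposited raw read counts per Ensembl gene for each library. Per the file headers these came from featureCounts 1.5.0 on STAR alignments with reverse-strand counting over GRCm38 exons. The submitters' processing notes also name Trimmomatic 0.36 and STAR 2.4.2a. E12 DKO 1 was taken from the deposited table of all libraries, and the other 11 files each matched 1 column of it. Symbols were found for 48349 of 48795 gene IDs.

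Counts were filtered with filterByExpr, scaled by TMM and fitted for all 12 libraries in 1 model with a mean per group (edgeR 4.0.16, R 4.3.3, 8 residual degrees of freedom). The libraries' totals, 19967593 to 33065424, set the precision, and counting intervals cover counting error only. limma 3.58.1, DESeq2 1.42.0 and other filters, scalings and left-out libraries were the alternatives. The test was checked on simulated data. Genes with a mean of at least 1 CPM (31 of the 36) are given by library, the others by range, by reads or, where a result turned on them, by library. From other lists, up to 4 genes of lowest adjusted p are named, besides the tested CSF1R and PU.1 companions, of which 1 is not reported here; further genes named were chosen after their values were seen. The 36 genes and the lists were chosen with earlier results of these data known. Replicate numbers did not pair libraries: deviations of same-numbered libraries correlated at -0.0993, -0.0331 and -0.176 between the E12 groups and at 0.01, 0.0305 and -0.0042 between the E18 groups. Overlapping exons of another gene on the same strand were found for none of the 36 genes.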

Additional observations from a re-analysis of the deposited data

Results flagged for a closer look

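The genotype difference at E18, against the libraries labelled E18 WT, differed from that at E12 for 12 macrophage genes by edgeR's quasi-likelihood F test, adjusted by Benjamini and Hochberg's method. On the log2 scale it was larger at E18 for Csf1r by 2.55 (adjusted p = 0.00207), Cd68 by 3.90 (adjusted p = 0.00131), Ctss by 1.61 (adjusted p = 0.0258), Cd163 by 4.30 (adjusted p = 0.00862), Maf by 1.23 (adjusted p = 0.0124) and Cd14 by 3.42 (adjusted p = 0.00706). The same held for Fcgr3, by 4.55 (adjusted p = 0.00182), and Fcgr2b, by 5.27 (adjusted p = 0.00193). For Cbr2 the fitted value was 8.02 (adjusted p = 0.00322), which depends on the prior count, since E12 DKO held 1 read of it. It was smaller at E18 for Adgre1 (-2.75, adjusted p = 0.00208), Mrc1 (-1.29, adjusted p = 0.016) and Timd4 (-4.03, adjusted p = 0.00715). Without E12 WT 1, all of these 12 remained called, with Cd163 at 2.93 and Cbr2 at 5.73 as their lowest values over all settings.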

How the results depend on the processing

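Over 21 alternative settings, no called gene reversed its direction, and uncalled genes changed the sign of their estimate in at most 10 cases per comparison and setting. Of the 15 genes called at E18, 8 (Csf1r, Cd68, Ctss, Cd163, Timd4, Cd14, Fcgr3 and Fcgr2b) were called in every setting that tested them; of the 12 called for the difference between stages, 10, all but Ctss and Maf; of the 18 between the DKO groups, 12. Leaving out 1 library at a time gave 9 to 17 calls at E18 (9 without library 1 or library 2 labelled E18 WT), 11 to 14 for the difference, 13 to 22 between the DKO groups, 0 to 3 at E12 and 0 to 2 between the WT groups. Without both E12 WT 1 and library 3 labelled E18 WT, the counts were 19, 16, 22, 6 and 1. DESeq2's Wald test called 6 genes at E12 and 5 between the WT groups. Scaling by library size alone moved the median of all genes from -0.04 to -0.41 at E18, to -0.64 for the difference, to 0.22 at E12, to -0.37 between the DKO groups and to 0.26 between the WT groups. It called 2 genes between the WT groups, and split the difference into 7 upward and 7 downward calls, against 9 and 3. Fitting only the groups compared called 0 genes between the WT groups.

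Replicate numbers did not pair the libraries. With the replicate block, 15 genes were called at E18, 0 at E12, 12 for the difference, 19 between the DKO groups and 0 between the WT groups. Genes at a few reads, Timd4, Cbr2, Clec7a and Marco, are limited by depth, and the cause of the other changes was not tested.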
